A study of Mus musculus with 8 samples.

Results

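The 10 transcripts of the mouse mitochondrial genome described here were measured in MII oocytes of young and old females: the ribosomal RNAs mt-Rnr1 and mt-Rnr2, and the mRNAs mt-Nd1, mt-Nd2, mt-Nd4, mt-Co1, mt-Co2, mt-Co3, mt-Cytb and mt-Atp6. The members were taken by symbol from the deposited tables of normalised read counts (CPM, read counts scaled to library size by TMM), and all 10 were found in each table, none being absent. The input table held 10530 genes, 27 of them mitochondrially encoded, and the HA table held 8898 genes, 22 of them mitochondrially encoded. Of the 37 mitochondrial genes of the GENCODE annotation, 2 encode ribosomal RNAs, 13 encode proteins and 22 encode tRNAs.

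The oocytes came from C57BL/6 RiboTagF/F;Zp3-Cre females, in which the Zp3 promoter drives Cre in growing oocytes and Cre switches the ribosomal protein gene Rpl22 to an HA-tagged form. All groups carried both alleles, so there was no untagged control. Young females were 1 month old, and old females were retired breeders of 12 to 15 months, so that age and breeding history cannot be told apart. All were primed with 5 IU PMSG, received 10 IU hCG after a further 48 h, and gave ovulated oocytes 13 h after hCG. Each age had 2 pools of 200 oocytes from an unstated number of females. From each pool, 10% of the cleared lysate was kept as input and the rest went to immunoprecipitation with an HA antibody, giving 8 libraries: old input, young input, old HA and young HA, 2 of each. The reads recovered on genes ranged from 37817382 to 60052814 per library. Oocyte identity was checked with 12 markers, all of which were found in every library, with summed levels of 9544 to 10638 CPM in input and 11659 to 18204 CPM in HA. Of 14 cumulus or granulosa markers, 9 were listed in input, at summed levels of 154 to 315 CPM. In HA 4 were listed, at 88.8 to 207 CPM. Nr5a2 was at 122 and 198 CPM in old and 115 and 91.4 CPM in young input. Cyp19a1 was at 13.5 and 37.4 CPM in old and 47.4 and 56.1 CPM in young input. In HA, Cyp19a1 was at 80.4 and 69.7 CPM in old and 142 and 174 CPM in young. Inhba, Ptgs2 and Tnfaip6 reached up to 48.1, 33.3 and 29.5 CPM in input. Amh, Foxl2, Cyp11a1, Ptx3 and Hsd17b1 were listed in neither table. Of 6 oviduct markers only Epcam was listed, in input alone and at up to 57.6 CPM, and none of 7 blood and immune markers was listed.

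The mitochondrial genome is a small circle that is transcribed from both strands into long precursors, which are cut at the tRNAs into separate ribosomal RNAs, mRNAs and tRNAs. Its mRNAs encode core subunits of the respiratory chain and of ATP synthase, and they are translated inside the organelle by mitochondrial ribosomes that are built around mt-Rnr1 and mt-Rnr2. RPL22 is a protein of the large subunit of the cytosolic ribosome, which does not read these mRNAs. The HA/input of the mitochondrial transcripts, the measure that for cytosolic mRNAs is taken as translation efficiency (TE), therefore describes how much RNA outside the reach of the tagged ribosome was present in the immunoprecipitate.

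Mammalian nuclear genomes hold copies of mitochondrial DNA, and reads from such stretches cannot be assigned by sequence. In GENCODE M21 (GRCm38), a run of 7 unprocessed pseudogenes on the minus strand of chromosome 1, from position 24611535 to 24616197, copies part of the mitochondrial genome. The openings of 4 members and of their copies are shown because these rows cannot be told apart over that stretch. Letters are in lower case where the pair is identical, and the 6 capitals in the last pair mark bases that differ.

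mt-Co2, bases 1 to 30: atggcctacccattccaacttggtctacaa
Gm28661, bases 1 to 30: atggcctacccattccaacttggtctacaa
mt-Atp6, bases 1 to 30: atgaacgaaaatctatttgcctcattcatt
Gm10925, bases 1 to 30: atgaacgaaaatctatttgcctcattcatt
mt-Co3, bases 1 to 30: atgacccaccaaactcatgcatatcacata
Gm28437, bases 1 to 30: atgacccaccaaactcatgcatatcacata
mt-Nd4, bases 1 to 30: atgctaaaaattattcttccctcactaatg
Gm28439, bases 1 to 30: atgctaaaaattattcttccctcactaatg
mt-Co1, bases 1054 to 1083: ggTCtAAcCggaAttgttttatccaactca
Gm29216, bases 1 to 30: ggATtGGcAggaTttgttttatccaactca

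The identity went on past these windows. mt-Co2 and Gm28661 were identical over 681 bases, mt-Atp6 and Gm10925 over 678, mt-Co3 and Gm28437 over 783, and the first 876 bases of mt-Nd4 were identical to Gm28439. Gm29216 matched the last 492 bases of mt-Co1 (position 1 being the first base of mt-Co1) with 6 differences, T1056A, C1057T, A1059G, A1060G, C1062A and A1066T, all at the start of the copy. When each member was cut into all windows of 36 bases, the shortest read kept after trimming, 100% of the mt-Co2 windows, 99.9% of the mt-Co3 windows and 99.5% of the mt-Atp6 windows also occurred in another annotated gene. The share was 62.6% for mt-Nd4, 59.7% for mt-Co1, 11.1% for mt-Nd2, 3.07% for mt-Cytb and 2.07% for mt-Rnr2, and 0% for mt-Rnr1 and mt-Nd1. The rows of mt-Co2, mt-Co3 and mt-Atp6 therefore hold only those reads that the aligner and counter could place, and how multiply aligned reads were treated is not given in the sources used here.

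The levels per length followed this division of the members. In input, the ribosomal RNAs reached 31477 ± 11916 CPM per kb for mt-Rnr1 and 24678 ± 9834 CPM per kb for mt-Rnr2 (SD, n = 4 pools of both ages). The mRNAs that share little or part of their sequence had means of 2221 CPM per kb (mt-Nd2) to 6263 CPM per kb (mt-Cytb). The members shared nearly in full, mt-Atp6, mt-Co2 and mt-Co3, stood at 152, 104 and 28.7 CPM per kb. In every input library the order began with mt-Rnr1 and mt-Rnr2 and ended with mt-Nd2, mt-Atp6, mt-Co2 and mt-Co3, and mt-Cytb, mt-Nd1, mt-Nd4 and mt-Co1 lay between them. Within that middle group neighbours differed by less than 1 SD over pools: mt-Cytb 6263 ± 2295, mt-Nd1 5725 ± 2375, mt-Nd4 2938 ± 1070 and mt-Co1 2841 ± 1002 CPM per kb, apart from the step from mt-Nd1 to mt-Nd4. Counted per kb of sequence found in no other annotated gene, the mean of mt-Nd4 became 8065 CPM per kb with windows of 36 or 50 bases, above mt-Cytb at 6665 and 6543. That of mt-Co1 became 7219 with 36 bases, above mt-Cytb and above mt-Nd1 at 5942, but 6004 with 50 bases, below mt-Cytb and mt-Nd1 at 6034. In HA, mt-Rnr2 (2453 ± 2343), mt-Rnr1 (2210 ± 2237), mt-Nd1 (2095 ± 1315) and mt-Cytb (2038 ± 1520 CPM per kb) did not differ beyond their spread, and mt-Co2, mt-Co3 and mt-Atp6 were again last, at 13.1 to 43.2 CPM per kb. The low place of mt-Co2, mt-Co3 and mt-Atp6 describes countable reads and cannot be told apart from low RNA levels.

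**Figure D1:**
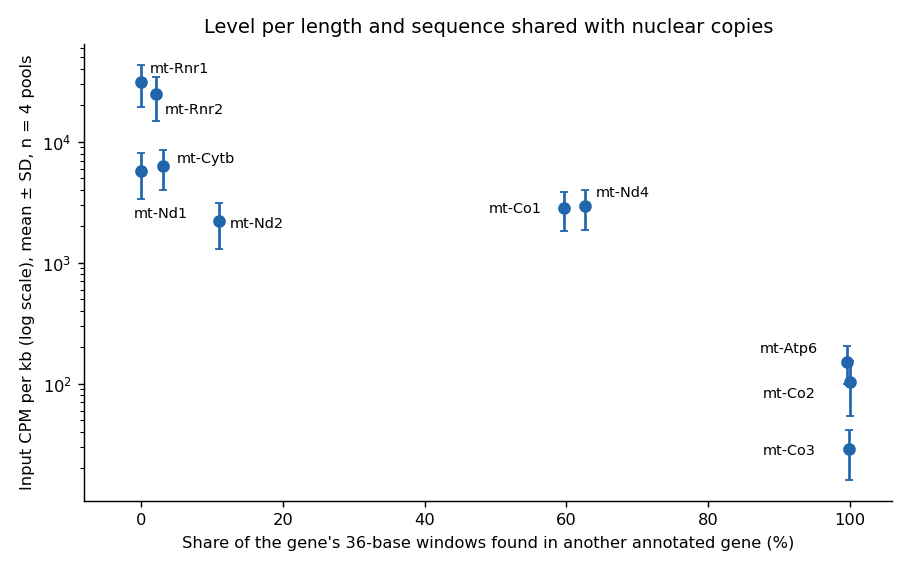
Mean input level in CPM per kb (log axis, error bars SD over 4 pools) of each member against the percentage of its 36-base windows that occur in another annotated gene. mt-Co2, mt-Co3 and mt-Atp6, at 99.5 to 100%, sit between 28.7 and 152 CPM per kb, and all other members lie at 2221 CPM per kb or higher.

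The nuclear copies were themselves listed in both tables. Gm28661 had 117 and 141 CPM in the old and 22.9 and 65.3 CPM in the young input libraries, and mt-Co2 had 91.9 and 104 CPM in old and 29.0 and 59.0 CPM in young. Over mt-Co2, mt-Co3 and mt-Atp6, the copy's row was 0.788 to 2.12 times the member's row in input and 1.39 to 3.19 times in HA. The copies of mt-Nd4 and mt-Co1 reached only 0.0170 to 0.0376 of the member's row in input and 0.0284 to 0.0596 in HA. With 100% identity the source of the reads in Gm28661, Gm10925 and Gm28437, nuclear or mitochondrial, cannot be told apart.

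Mitochondrially encoded genes took a larger share of reads in input than in HA in every pool. The share of all reads on genes was 9.72% and 12.7% in the old input libraries and 5.78% and 9.62% in the young ones. In HA it was 0.715% and 1.67% in old and 0.953% and 3.61% in young. The 95% Wilson intervals, which cover counting error only, were at most 0.00934 percentage points wide on either side. The input share thus exceeded the HA share 13.6-fold and 7.58-fold in the old pools and 6.07-fold and 2.67-fold in the young pools. Old input libraries lay above young ones by a narrow gap and HA libraries overlapped, with exact permutation p = 0.333 and p = 0.667 (two-sided, n = 2 against 2, for which 0.333 is the smallest p possible).

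The makeup of the mitochondrial reads differed between the fractions. mt-Rnr1 and mt-Rnr2, the RNAs of the small and the large mitochondrial ribosomal subunit, gave 70.1% and 74.3% of mitochondrial reads in old input and 74.2% and 67.1% in young input. In HA they gave 27.5% and 16.2% in old and 45% and 48.9% in young. The ribosomal RNA share was thus lower in HA than in input in all 4 pools, and in HA both old pools lay below both young pools. The difference in HA, 21.8 ± 7.96% against 47.0 ± 2.78% (SD, n = 2), reached exact permutation p = 0.333, the smallest this design allows, and that in input p = 0.667. This share does not depend on how the libraries were scaled.

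**Figure D2:**
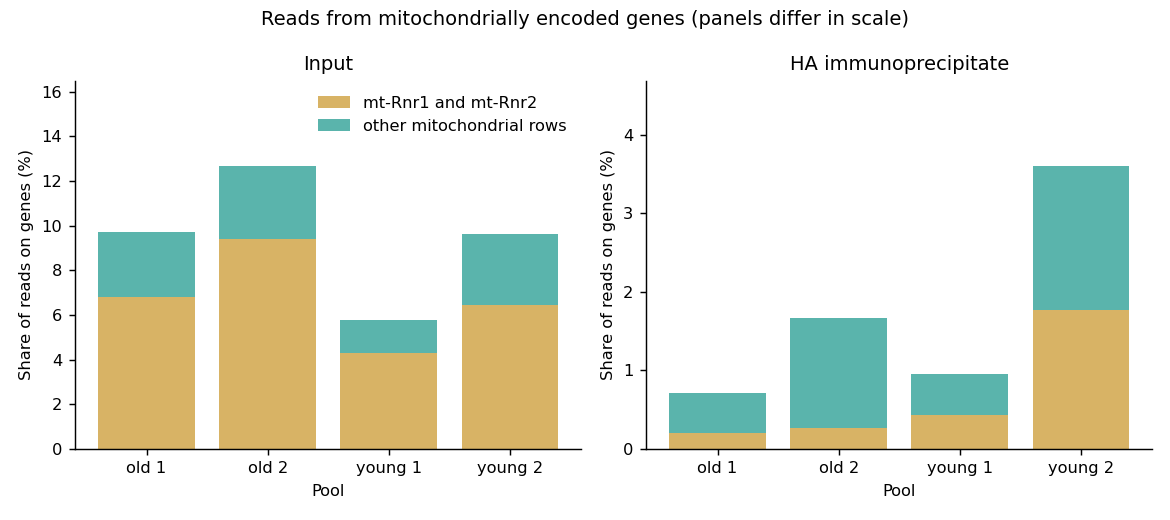
Percentage of reads on genes that came from mt-Rnr1 and mt-Rnr2 (ochre) and from the other mitochondrially encoded rows (green) in each input library (left) and HA library (right). The vertical scales of the panels differ. Ribosomal RNA makes up 67.1 to 74.3% of the mitochondrial reads in input and 16.2 to 48.9% in HA.

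mt-Rnr1 (ENSMUSG00000064337.1; chromosome M, 70 to 1024, plus strand) was measured in input at 31886 and 44183 CPM in old and 16676 and 27497 CPM in young oocytes. In HA it was at 965 and 1111 CPM in old and 1052 and 5313 CPM in young. Old lay above young in input without overlap, whereas in HA 3 libraries were close together and young pool 2 was 5.05 times young pool 1. mt-Rnr2 (chromosome M, 1094 to 2675, plus strand) gave the same picture, with 39236 and 58731 CPM in old and 20713 and 37485 CPM in young input. Its HA values were 1223 and 2678 CPM in old and 2259 and 9364 CPM in young. Again only young pool 2 stood far above the others in HA.

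The differences between ages were tested with limma on log2(CPM + 1), the p-values being adjusted by Benjamini-Hochberg within each table. Only the spread between pools, which may be technical, enters these tests, and with 1 value per library fewer copies of an RNA and more of all other RNA cannot be told apart. In input, mt-Rnr1 was higher in old by 0.81 ± 0.30 and mt-Rnr2 by 0.78 ± 0.33 on the log2 scale (SE, unadjusted p = 0.0259 and 0.0447, adjusted p = 0.778 for each). In HA the differences, old minus young, were -1.19 ± 0.71 and -1.34 ± 0.71 log2 units (adjusted p = 0.545 and 0.462). None of these passed the adjusted threshold of 0.05. With quantile normalisation the input differences of mt-Rnr1 and mt-Rnr2 were 0.10 and 0.11.

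**Figure D3:**
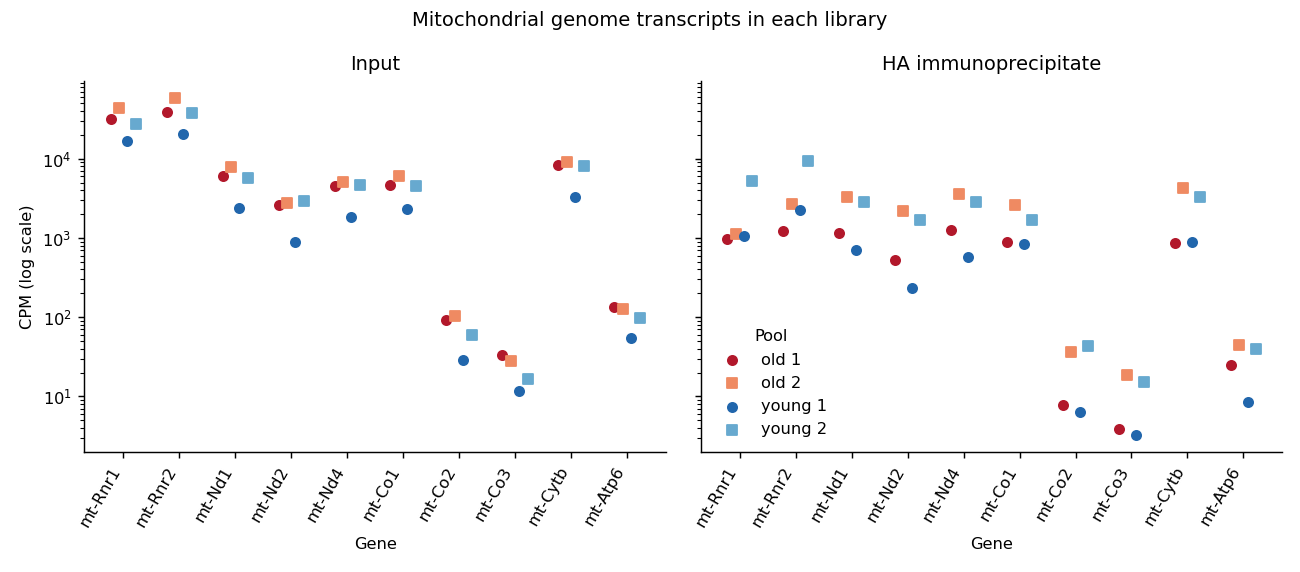
CPM (log axis) of the 10 members in each input library (left) and HA library (right). Red and orange are old pools 1 and 2, dark and light blue are young pools 1 and 2. In input young pool 1 is the lowest for all members, and in HA pools 2 (squares) lie above pools 1 (circles) of the same age for each member.

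The members of complex I, NADH dehydrogenase, encode subunits of its membrane arm. mt-Nd1 (chromosome M, 2751 to 3707) had 6044 and 7800 CPM in old and 2358 and 5712 CPM in young input. In HA it had 1168 and 3308 CPM in old and 713 and 2830 CPM in young. The input groups did not overlap and the HA groups did. mt-Nd2 (3914 to 4951) had 2625 and 2760 CPM in old and 881 and 2955 CPM in young input, and 523 and 2176 CPM in old and 234 and 1697 CPM in young HA. mt-Nd4 (10167 to 11544) had 4579 and 5053 CPM in old and 1857 and 4706 CPM in young input, and 1257 and 3581 CPM in old and 571 and 2852 CPM in young HA. For mt-Nd2 and mt-Nd4 both fractions overlapped, and young pool 1 was the lowest library of each fraction. The input differences, old minus young, were 0.90 ± 0.38 for mt-Nd1, 0.74 ± 0.47 for mt-Nd2 and 0.70 ± 0.39 for mt-Nd4 (log2, SE).

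The members of complex IV, cytochrome c oxidase, encode its catalytic core. mt-Co1 (5328 to 6872), which carries the haem groups, had 4613 and 6054 CPM in old and 2307 and 4583 CPM in young input. In HA it had 896 and 2583 CPM in old and 827 and 1685 CPM in young. Its input groups were separate by a narrow gap. mt-Co2 (7013 to 7696), the subunit that receives electrons from cytochrome c, had in HA 7.67 and 36.4 CPM in old and 6.31 and 43.3 CPM in young. mt-Co3 (8607 to 9390) had 33.3 and 28.3 CPM in old and 11.8 and 16.6 CPM in young input, and 3.85 and 18.7 CPM in old and 3.28 and 15.2 CPM in young HA. The input groups of mt-Co2 and mt-Co3 were separate, and in HA the 4 values of each formed a low pair, pools 1, and a high pair, pools 2. The input differences were 0.70 ± 0.33 for mt-Co1, 1.22 ± 0.48 for mt-Co2 (unadjusted p = 0.0335) and 1.08 ± 0.70 for mt-Co3 (log2, SE).

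mt-Cytb (14145 to 15288), the only subunit of complex III that the mitochondrial genome encodes, had 8296 and 8981 CPM in old and 3266 and 8118 CPM in young input. In HA it had 854 and 4310 CPM in old and 886 and 3275 CPM in young. The input groups were close to touching. mt-Atp6 (7927 to 8607), a subunit of the proton channel of ATP synthase, had 135 and 126 CPM in old and 54.8 and 98.1 CPM in young input, and 24.8 and 44.2 CPM in old and 8.50 and 40.2 CPM in young HA. Its input groups were separate. The input differences were 0.75 ± 0.38 and 0.82 ± 0.40 (log2, SE). The end of mt-Atp8 overlaps the start of mt-Atp6 and the last base of mt-Atp6 is the first of mt-Co3. How reads over these joints were counted was not tested.

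Over the 10 members, the input level was higher in old than in young by a median of 0.80 log2 units. The median of all 10530 genes was -0.03. Under the other scalings the median of the members was 0.55 to 0.82. It was lowest with quantile normalisation, where mt-Rnr1 and mt-Rnr2 stood at only 0.10 and 0.11. Both old pools lay above both young pools for 8 of 10 members, all but mt-Nd2 and mt-Nd4, where this held for 16.4% of all genes; none lay below, where 18.9% of all genes did. An unadjusted p under 0.05 with a higher level in old was reached by 4 of 10, mt-Rnr1, mt-Rnr2, mt-Nd1 and mt-Co2, against 2.71% of all genes, and with a lower level by none, against 3.48%. The members are neighbours cut from shared precursors, so these are not 10 independent observations. With adjusted p-values, 0 of 10 passed (adjusted p = 0.778 to 0.839), where 1 gene of all, or 0.0095%, passed in limma. DESeq2 called 1.06% of all genes, edgeR's likelihood ratio test 0.475% and its quasi-likelihood test 0%, with no member among them. Young pool 1 had a large part in the difference: without it the median of the members fell to 0.31 and mt-Nd2 turned to -0.13, and without young pool 2 it rose to 1.34. Without old pool 1 or old pool 2 it was 0.93 and 0.69.

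In HA, the differences of the 8 mRNA members ranged from 0.00 (mt-Co2) to 0.79 (mt-Atp6), with SEs of 0.60 to 1.62 and adjusted p = 0.802 to 0.9999. None of the 10 members had an unadjusted p under 0.05, where 4.28% of genes were higher and 10.5% lower in old at that level. None had groups without overlap, against 17.2% of genes with old above and 24.7% with old below young. No gene of the 8898, or 0%, passed the adjusted threshold in limma. DESeq2 called 5.59% of all genes, edgeR's likelihood ratio test 3.32% and its quasi-likelihood test 0%, with no member among them. The sign of the mRNA members in HA depended on the scaling: with each library set to the same sum, which moved the median of all genes by -0.54, mt-Nd1, mt-Co1, mt-Co2, mt-Co3 and mt-Cytb were below 0 and mt-Nd2, mt-Nd4 and mt-Atp6 above it, and with quantile normalisation mt-Nd1, mt-Nd4, mt-Co1 and mt-Cytb were below 0. The differences of mt-Rnr1 and mt-Rnr2 in HA were below 0 under each scaling. Over the fits without 1 pool they ran from -2.36 to -0.02 for mt-Rnr1 and from -2.37 to -0.32 for mt-Rnr2.

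The HA libraries differed more by pool than by age. For the 8 mRNA members, old pool 2 was 1.78 to 5.04 times old pool 1, and young pool 2 was 2.04 to 7.24 times young pool 1. In input these folds were 0.848 to 1.31 in old and 1.40 to 3.35 in young. All 10 members were higher in pool 2 than in pool 1 in HA at both ages, while 48.6% of all genes were higher in old pool 2 and 48.0% in young pool 2. The same numbers carry no stated link between an old and a young pool, and the part of handling or depth in these folds was not tested. The libraries of pools 2 held fewer recovered reads in HA than those of pools 1, 37817382 against 46950706 in old and 47163410 against 59688578 in young.

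HA/input, given as HA CPM over input CPM in 1 pool, was below the gene median for most members. The tables were normalised separately, so the ratio is read against the 8537 genes present in both, whose median was 0.687 and 0.572 in the old pools and 0.729 and 0.724 in the young pools. All 10 members lay below that median in old pool 1 and young pool 1, 7 of 10 in old pool 2 and 8 of 10 in young pool 2. The median member stood at percentile 16.2 and 40.2 in the old pools and 7.99 and 28.4 in the young pools, counted with a pseudocount of 1 CPM. With pseudocounts of 0.1 and 5 CPM it was 21.6 and 7.68 in old pool 1 and 10.9 and 3.33 in young pool 1. Ranks are not equally spread between ages: the lower to upper quartile of all genes spanned 0.181 to 1.64 and 0.0723 to 1.83 in the old pools but 0.433 to 1.23 and 0.356 to 1.31 in the young pools.

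mt-Rnr1 and mt-Rnr2 had the lowest HA/input of the members in each of the 4 pools. mt-Rnr1 was at 0.0303 and 0.0251 in old and 0.0631 and 0.193 in young, or percentiles 1.51, 2.24, 0.117 and 9.14. mt-Rnr2 was at 0.0312 and 0.0456 in old and 0.109 and 0.250 in young, or percentiles 1.64, 6.10, 0.703 and 13.5. Both old pools lay below both young pools for each ribosomal RNA.

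The mRNA members all exceeded both ribosomal RNAs in every pool. In old pool 1 they ranged from 0.0835 (mt-Co2) to 0.275 (mt-Nd4), and in old pool 2 from 0.351 (mt-Co2) to 0.789 (mt-Nd2). In young pool 1 they ranged from 0.155 (mt-Atp6) to 0.359 (mt-Co1), and in young pool 2 from 0.368 (mt-Co1) to 0.915 (mt-Co3). The order among the mRNAs changed from pool to pool, and the highest and lowest of them were never the same pair. Their median over mt-Rnr1 was 6.24 and 18.0 in the old pools and 4.35 and 2.77 in the young pools, and over mt-Rnr2 it was 6.05 and 9.94 against 2.52 and 2.14. These ratios within a pool do not depend on scaling, and in both cases old lay above young, with exact permutation p = 0.333, the smallest possible.

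**Figure D4:**
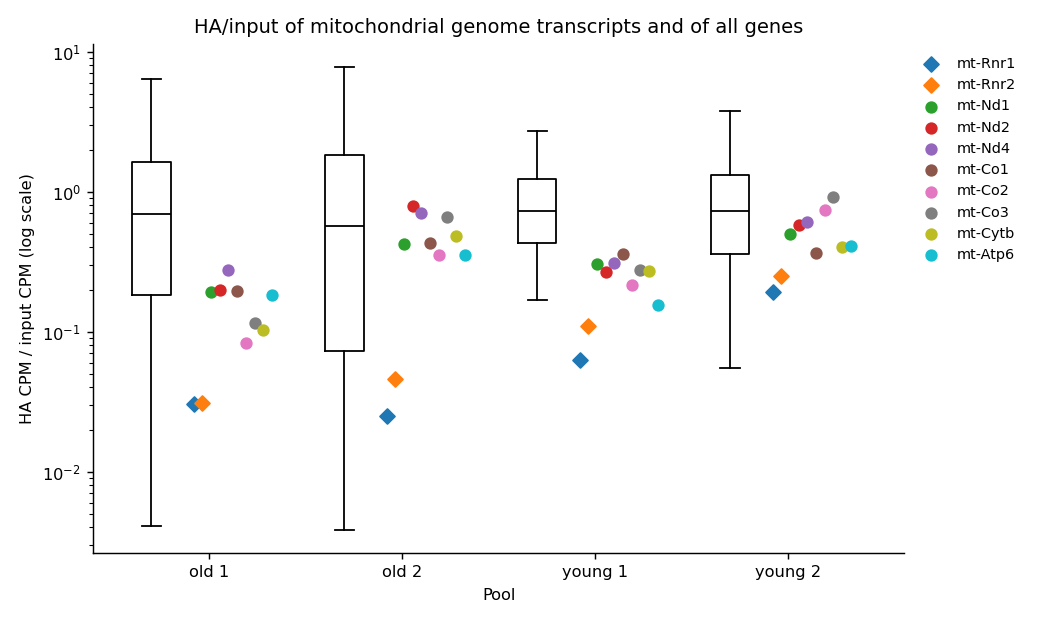
HA CPM over input CPM (log axis) in each of 4 pools. Boxes show all genes present in both tables (median, quartiles and, as whiskers, the 5th to 95th percentile), diamonds the ribosomal RNAs and circles the mRNA members. The diamonds lie at 0.0251 to 0.250, below every circle of the same pool.

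Tested as log2(HA CPM + 1) minus log2(input CPM + 1), HA/input of mt-Rnr1 differed by -2.00 ± 0.45 and that of mt-Rnr2 by -2.13 ± 0.38 log2 units, old minus young (SE, n = 2 against 2). Their unadjusted p in limma was 0.00187 and 0.000358, and the adjusted p over 8537 genes was 0.739 for each, so that neither passed. An unadjusted p under 0.05 with a lower ratio in old was reached by 3.51% of all genes, and groups without overlap in that direction by 20.4%. Without young pool 1 the differences of mt-Rnr1 and mt-Rnr2 were -2.81 and -2.73, and without young pool 2 they were -1.19 and -1.53. Without old pool 1 they were -2.13 and -1.86, and without old pool 2 they were -1.87 and -2.40. Each of these fits leaves 1 pool in an age, so no p-value is given here. For the 8 mRNA members the difference ranged from -1.22 (mt-Co2) to 0.03 (mt-Nd4), with adjusted p = 0.853 to 0.997, and their groups overlapped. No gene of the 8537, or 0%, passed the adjusted threshold in limma or in edgeR's quasi-likelihood test. DESeq2 called 4.26% of all genes and edgeR's likelihood ratio test 1.07%, with no member among them.

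**Figure D5:**
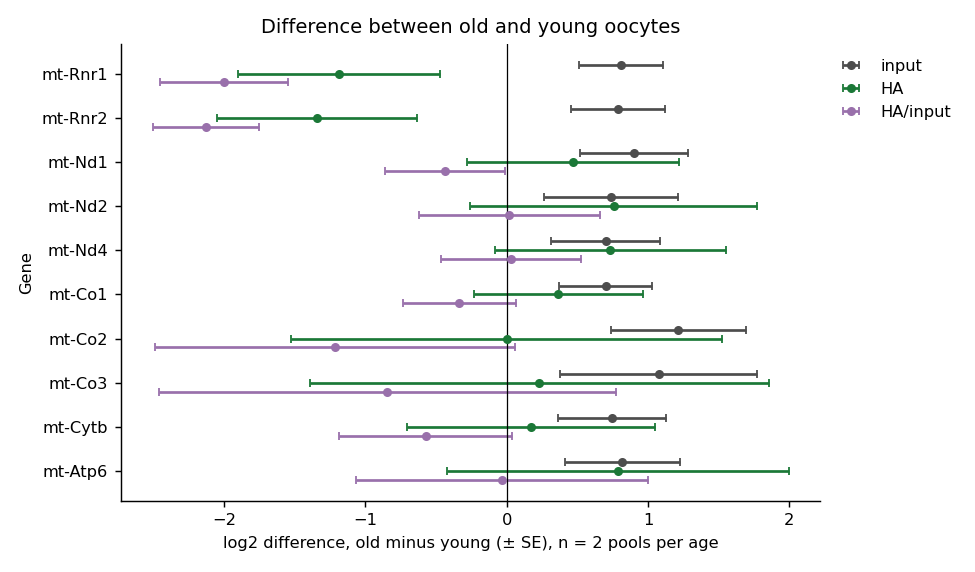
Difference between old and young oocytes in log2 units (points, error bars SE, n = 2 pools per age) of each member in input (grey), HA (green) and HA/input (purple). The input points lie between 0.70 and 1.22, and the HA/input points of mt-Rnr1 and mt-Rnr2 lie at -2.00 and -2.13, apart from those of the 8 mRNAs at -1.22 to 0.03.

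The remaining 5 protein-coding genes were listed in input and 4 of them in HA, mt-Nd3 being absent there. HA/input of those 4, mt-Atp8, mt-Nd4l, mt-Nd5 and mt-Nd6, was 0.133 to 0.274 in old pool 1, 0.431 to 0.772 in old pool 2, 0.278 to 0.370 in young pool 1 and 0.459 to 0.765 in young pool 2, within or close to the range of the mRNA members. mt-Nd6 is encoded on the other strand and the counting did not use strand. Of the 22 tRNAs, which lie between the larger genes in the precursor, 12 were listed in input and 8 in HA, at no more than 117 and 87.6 CPM. HA/input of these 8 was 0.0114 to 0.581 in old pool 1, 0.296 to 1.48 in old pool 2, 0.232 to 0.475 in young pool 1 and 0.46 to 0.781 in young pool 2. It was above 1 for mt-Ti (1.48) and mt-Tq (1.12) in old pool 2, and mt-Tf in old pool 1 (0.0114) lay below both ribosomal RNAs. mt-Tl1, which lies directly between mt-Rnr2 and mt-Nd1, had the highest CPM of these tRNAs in each library. Its HA/input was 0.314, 0.748, 0.36 and 0.51 in old pools 1 and 2 and young pools 1 and 2. In each pool this was above mt-Rnr2 but not the highest of the tRNAs. mt-Tl2 had 0.581 in old pool 1, mt-Ti 1.48 in old pool 2, and mt-Tm 0.475 and 0.781 in young pools 1 and 2.

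Malat1, a nuclear noncoding RNA, was the only one of 7 listed noncoding RNAs found, and it serves as another RNA that the cytosolic ribosome does not translate. It had 11.7 and 37.3 CPM in old and 6.66 and 10.4 CPM in young input, and 11.5 and 2.18 CPM in old and 11.3 and 2.29 CPM in young HA. Its HA/input was thus 0.981 and 0.0585 in old and 1.70 and 0.221 in young, higher in pools 1, where the members were lower. The 12 oocyte markers, which are cytosolic mRNAs, had a median HA/input of 1.11 and 1.29 in the old pools and 0.844 and 0.953 in the young pools, above the median of the mitochondrial members in each pool.

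No nuclear gene of the lists of mitochondrial factors and subunits passed the test between ages. Of all genes, 1 of 10530 passed in input and 0 of 8898 in HA by limma. Of 30 measured factors for mitochondrial DNA and RNA, 0 passed in either direction in input by limma, with a median difference of -0.09. Of these 30, 0 had an unadjusted p under 0.05, where 2.71% of all genes were higher and 3.48% lower. Of 27 in HA 0 passed, with 1 higher and 3 lower at unadjusted p under 0.05, near the 4.28% and 10.5% of all genes. Grsf1, an RNA-binding protein of mitochondrial RNA granules, had 183 and 90.0 CPM in old and 67 and 61.7 CPM in young input (adjusted p = 0.778), and Mterf1a, a transcription termination factor, had 0.349 and 0.0602 against 2.22 and 1.68 CPM (adjusted p = 0.790). In HA, Angel2 had 426 and 662 CPM in old and 198 and 207 CPM in young. Fastkd2, which binds mitochondrial RNA, had 0.119 and 0.0739 CPM in old and 19.4 and 14.1 CPM in young (adjusted p = 0.297 for each of the pair). Its value in old pool 2 lay under the level of 3 reads. All 4 genes were chosen as the smallest p of the list in their direction.

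Of 8 measured mitochondrial translation factors, 0 passed in input. There 0 had an unadjusted p under 0.05, where 2.71% of all genes were higher and 3.48% lower. In HA 0 passed, with 3 lower and none higher at unadjusted p under 0.05, against 10.5% and 4.28% of all genes. Tsfm, an elongation factor, had 13.8 and 52.3 CPM in old and 6.79 and 3.50 CPM in young input, and Gfm1, another elongation factor, had 63.8 and 79.6 against 86.9 and 93.3 CPM (adjusted p = 0.778 and 0.932). In HA, Gfm2 had 8.55 and 36.9 against 15.3 and 14.3 CPM (adjusted p = 0.975). Mtrf1, a release factor, had 0.0475 and 0 CPM in old and 2.88 and 6.42 CPM in young HA (adjusted p = 0.297), the old values lying under the level of 3 reads. The median difference of the list was 0.24 in input and -1.63 in HA, where the median of all genes was -0.03 and -0.14.

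The nuclear-encoded subunits that join the mitochondrial ones in the respiratory chain and ATP synthase had 54 measured genes in input and 31 in HA. None passed in limma. At unadjusted p under 0.05, 2 were higher and 3 lower in input, and 0 were higher and 4 lower in HA, where 2.71% and 3.48% of all genes were so in input and 4.28% and 10.5% in HA. Sdhc, a membrane anchor of complex II, had 114 and 43.1 CPM in old and 11.9 and 10.5 CPM in young input, and Atp5a1, the catalytic-head alpha subunit of ATP synthase, had 44.8 and 39.3 against 88.4 and 112 CPM (adjusted p = 0.778 each). In HA, Cox7a2l, a respiratory supercomplex factor, had 7.08 and 4.18 against 0.724 and 0.300 CPM (adjusted p = 0.340). Ndufa5, of complex I, had 0 and 0.0370 against 2.06 and 5.45 CPM (adjusted p = 0.297). Its old values lay under the level of 3 reads. The median difference was -0.35 in input and -0.57 in HA. HA/input of these genes had medians of 0.308 and 0.502 in the old pools and 0.609 and 0.732 in the young pools.

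The pattern over all 8 libraries was compared with 5305 genes that averaged at least 10 CPM in each table. Likeness was Pearson's r with the mean of the members' centred log2(CPM + 1), given as a description over 8 libraries that share pools, depth and the step from input to HA. The members themselves had r of 0.906 (mt-Rnr1) to 0.982 (mt-Cytb). The 5 nuclear genes closest to the profile were Camta1 (r = 0.977), Rif1 (0.970), Zfp951 (0.969), Eif4g3 (0.960) and Dnajc21 (0.957). Camta1 had 1204 and 1182 CPM in old and 744 and 1192 CPM in young input, and 431 and 807 CPM in old and 446 and 674 CPM in young HA. It shared with the members the lowest input value in young pool 1 and the higher HA value in pools 2.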

How the data were processed

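The 2 deposited tables gave TMM-normalised CPM (a signal, since TMM factors are included) for 4 HA and 4 input libraries. Per the labels and methods, the authors trimmed reads with Trimmomatic 0.36 (36 bases or longer kept), aligned them with HISAT2 to mm10, counted them with HTSeq (GENCODE M11, no strand) and normalised each fraction separately with edgeR. The versions of HISAT2 and HTSeq are not given in the sources used here. All values came out as whole reads, within 0.001, when divided by the value of 1 read, which gave the recovered depth. Old and young were compared with limma 3.58.1 (R 4.3.3) on log2(CPM + 1), and edgeR 4.0.16 and DESeq2 1.42.0 were run on the recovered reads as alternatives. HA/input used the difference of the logs, with the mean of both levels as trend covariate. The limma, edgeR and DESeq2 fits within each table and the limma fit of HA/input were tried on simulated data. The edgeR and DESeq2 fits of HA/input and the fits with a block were not. Shared sequence came from GENCODE M21 transcripts (GRCm38). Named genes were all members, other mitochondrial rows, nuclear copies, the 5 most alike genes and, per list, the smallest p in each direction. Members and lists were chosen with earlier results of these data known. No column was left out (0).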

Additional observations from a re-analysis of the deposited data

How the results depend on the processing

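Counts of genes with adjusted p under 0.05 depended on the tool. In input 1 gene passed in limma, 112 in DESeq2, 50 in edgeR's likelihood ratio test and 0 in its quasi-likelihood test (580 at unadjusted p under 0.05). In HA 0 passed in limma (1311 at unadjusted p under 0.05), 497 in DESeq2, 295 in the likelihood ratio test and 0 in the quasi-likelihood test. For HA/input 0 passed in limma (554 at unadjusted p under 0.05), 364 in DESeq2, 91 in the likelihood ratio test and 0 in the quasi-likelihood test. No member was among these. Leaving out 1 pool gave 0 to 2 genes in input, 0 to 634 in HA and 0 to 13 for HA/input. Equal replicate numbers mark no stated link; deviations of same-numbered libraries correlated at 0.0269 in input, 0.0786 in HA and 0.0108 for HA/input, over 2 pairs. With the replicate number as a block, 1, 9 and 5 genes passed, and HA/input of mt-Rnr1 and mt-Rnr2 reached adjusted p = 3.51e-09 and 1.53e-13.

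The sign of several mRNA members changed, and none of these differences passed the threshold in either direction; the cause was not tested. In HA, the same sum gave -0.17 for mt-Nd1, -0.28 for mt-Co1, -0.60 for mt-Co2, -0.33 for mt-Co3 and -0.47 for mt-Cytb, and the same sum of nuclear genes gave -0.19, -0.29, -0.61, -0.35 and -0.49. Quantile normalisation gave -0.27 for mt-Nd1, -0.01 for mt-Nd4, -0.37 for mt-Co1 and -0.58 for mt-Cytb. mt-Co2, at 0.00, became -0.17 in DESeq2 and both edgeR tests and -0.03 with a pseudocount of 5. Over the fits without 1 pool, the HA differences ran from -0.52 to 1.46 for mt-Nd1, -0.67 to 2.18 for mt-Nd2, -0.43 to 1.89 for mt-Nd4, -0.40 to 1.13 for mt-Co1, -1.3 to 1.3 for mt-Co2, -0.78 to 1.24 for mt-Co3, -1.0 to 1.34 for mt-Cytb and -0.27 to 1.85 for mt-Atp6. In input mt-Nd2 ran from -0.13 to 1.61, and the other 9 members stayed above 0. For HA/input, mt-Atp6, at -0.03, became 0.01 in DESeq2, in both edgeR tests and with a pseudocount of 0.1, 0.14 with median-of-ratios factors and 0.25 with quantile normalisation. mt-Nd2 became -0.43, -0.50 and -0.48 and mt-Nd4 -0.42, -0.49 and -0.54 with the same sum, the same sum of nuclear genes and quantile normalisation. Without 1 pool, the HA/input differences ran from -1.0 to 0.13 for mt-Nd1, -0.97 to 1.01 for mt-Nd2, -0.65 to 0.71 for mt-Nd4, -0.90 to 0.23 for mt-Co1, -1.97 to 0.28 for mt-Co3, -1.68 to 0.54 for mt-Cytb and -0.68 to 0.61 for mt-Atp6. For mt-Rnr1 they ran from -2.81 to -1.19 and for mt-Rnr2 from -2.73 to -1.53.

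The mitochondrial share of reads counted over the 10 members was 9.34% and 12.2% in old input, 5.52% and 9.07% in young input, 0.621% and 1.42% in old HA and 0.850% and 3.26% in young HA. Without mt-Rnr1 and mt-Rnr2 it was 2.91%, 3.26%, 1.49%, 3.16%, 0.519%, 1.40%, 0.524% and 1.84% in the same order, so that input stayed above HA in each pool. Among genes averaging at least 10 CPM in both tables, the median member's HA/input stood at percentile 10.1, 31.7, 4.51 and 23.2 in old pools 1 and 2 and young pools 1 and 2. Scaling moved the median difference of all genes by -0.17 to 0.02 in input, by -0.56 to 0.18 in HA and by -0.44 to 0.17 for HA/input. Levels per genome-wide unique length were not run, since no genome sequence was used; windows shared between transcripts were taken instead, and summing members with their nuclear copies was added, both after seeing the data. The sums kept the sign of all 5 members with a copy in both fractions. mt-Co3, with 162 reads in old HA pool 1, had the widest SE of the members in input, in HA and for HA/input.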
